A study of Mus musculus with 8 samples.

Results

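The replication-dependent histone genes were examined in mouse preimplantation embryos with knockdown of Smarca5, also known as Snf2h (KD), and in embryos of a group labelled NC. A member was a protein-coding gene whose symbol starts with Hist1h, Hist2h, Hist3h or Hist4h in the GENCODE vM21 annotation of the mm10 genome and whose mean normalized abundance over the 4 libraries of a table was at least 10. Of 67 such genes in the annotation, 63 were listed in each table, 17 reached the mean of 10 in morulae and 37 in blastocysts, out of 13404 and 13651 genes of any kind that did. All 17 were among the 37. By class, the blastocyst members were 2 H1, 12 H2A, 7 H2B, 9 H3 and 7 H4 genes, and the morula members were 1 H1, 9 H2A, 2 H2B, 3 H3 and 2 H4 genes. On the genome, 29 members lay on chromosome 13 between 21716422 and 23764406, 6 on chromosome 3 between 96221119 and 96269141, Hist3h2a on chromosome 11 (58954685 to 58956830) and Hist4h4 on chromosome 6 (136801553 to 136804415).

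There were 4 groups of 2 libraries each: KD morulae, NC morulae, KD blastocysts and NC blastocysts, with 20 embryos pooled per library. The morula is the compacted ball of cells before a cavity forms, and in the blastocyst a trophectoderm encloses that cavity and the inner cell mass. The labels name embryonic days 3.75 and 4.25 without tying either to a stage, and strain, sex, how the knockdown was made and what NC stands for are not given in the sources used here. RNA was selected on oligo(dT) beads, which bind poly(A). In whole embryos, fewer cells of a type and less RNA per cell cannot be told apart.

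Replication-dependent histone genes supply the core histones H2A, H2B, H3 and H4 and the linker histone H1 when DNA is copied in S phase. Their genes lie in clusters, mostly lack introns, and their mRNAs end in a conserved stem-loop in place of a poly(A) tail: the stem-loop binding protein SLBP and the U7 snRNP direct the cut just after the loop. Some of these genes can also give polyadenylated mRNAs from signals further downstream, and replacement histones such as H2A.Z and H3.3 come from ordinary polyadenylated mRNAs. A library made from poly(A) RNA therefore holds the polyadenylated or otherwise captured part of the histone mRNA, and what share that was in these embryos was not measured. None of 14 annotated RNAs that mostly lack a poly(A) tail, chosen as a reference list, was listed in either table. The non-coding genes that overlap histone genes, such as Gm20634 and Gm42743, were not listed either. The tables may therefore leave out non-coding genes as a kind, so this absence does not measure poly(A) capture.

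The stem-loop could be read directly from the GENCODE vM21 transcripts of 26 of the 37 members. It was searched on the transcript strand after the stop codon as GG, 3 bases of any kind, TT, any base, T, any base, A, 3 bases of any kind and CC, with at least 5 of the 6 outer positions able to pair, and all 6 paired in every member that had it. For comparison, the search was limited to the stretch just after the stop codon, and transcripts with too few bases there were left out. It then found the stem-loop in 48 of 55 histone transcripts (87.3%) and in 26 of 42783 other protein-coding transcripts (0.0608%). The stretches below, 5′ to 3′ with the stem-loop in capitals, show 1 member of each class and the pairs of copies and variant loops that the results turn on.

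Hist1h1c: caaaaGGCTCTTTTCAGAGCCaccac
Hist3h2a: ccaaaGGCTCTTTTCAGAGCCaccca
Hist1h2ao: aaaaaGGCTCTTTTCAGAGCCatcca
Hist1h2ap: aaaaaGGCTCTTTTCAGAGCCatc
Hist1h2bk: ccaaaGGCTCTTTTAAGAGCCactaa
Hist1h3c: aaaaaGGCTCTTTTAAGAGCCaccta
Hist1h3g: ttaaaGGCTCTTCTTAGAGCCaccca
Hist1h4i: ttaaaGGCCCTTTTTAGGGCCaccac
Hist1h4b: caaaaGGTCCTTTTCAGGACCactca
Hist1h4m: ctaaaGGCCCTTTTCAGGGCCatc
Hist1h4n: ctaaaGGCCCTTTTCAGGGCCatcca

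The loop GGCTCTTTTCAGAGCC was shared by 15 members of H1, H2A, H2B and H3. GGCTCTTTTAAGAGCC was found in Hist1h2bk, Hist1h3c and Hist1h3e, and GGCTCTTCTTAGAGCC in Hist1h3g. The H4 members had other stems: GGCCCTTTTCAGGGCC in 4 of them, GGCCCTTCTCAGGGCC in Hist1h4a, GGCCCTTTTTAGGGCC in Hist1h4i and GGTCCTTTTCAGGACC in Hist1h4b. Of the 11 members without a loop in the annotated transcript, 6 have a transcript model that stops at the stop codon, so the loop could not be looked for there, and 5 have at least 20 bases after it without these letters, among them Hist1h2bc, Hist1h2bq and Hist2h2be. Also among the 5 are Hist1h1a and Hist2h3b, with only 48 and 37 bases after the stop codon. These ends may stop before the loop is complete. The lines for Hist1h4m and Hist1h4n show the same loop and leader. Those for Hist1h2ao and Hist1h2ap do as well, and the annotated transcript of 1 copy in each pair ends 3 bases after the loop.

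Promoters were read from RefSeq windows of 300 bases (250 before to 50 after the gene's start, GRCm38.p6), found on the gene's own strand for 62 of the 67 genes and 34 of the 37 members. CCAAT, searched on both strands, was in every H1, H2A, H2B and H3 window (6, 18, 17 and 10 windows), in 3 of 12 H4 windows (25.0%) and in 37.3% of 32788 windows of other genes. TATAAA was in 40.0% to 66.7% of the windows of a class, against 13.5% of other windows. The octamer ATTTGCAT, the site of the POU factor encoded by Pou2f1, was in 7 of 18 H2A windows and 7 of 17 H2B windows, in none of the H1, H3 or H4 windows, and in 1.70% of other windows. The 250 bases before the start of an H2B and an H4 gene, Hist1h2bk (chr13:22035571-22035820, plus strand) and Hist1h4i (chr13:22041363-22041612, minus strand), are shown because both genes had higher values in both KD blastocyst libraries than in either NC library. Capitals mark matches of these motifs on either strand.

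Hist1h2bk: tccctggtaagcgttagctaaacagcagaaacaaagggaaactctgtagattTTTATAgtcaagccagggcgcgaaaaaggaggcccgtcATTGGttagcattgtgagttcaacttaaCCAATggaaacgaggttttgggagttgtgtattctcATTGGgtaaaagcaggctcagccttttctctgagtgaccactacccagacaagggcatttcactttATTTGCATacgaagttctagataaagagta
Hist1h4i: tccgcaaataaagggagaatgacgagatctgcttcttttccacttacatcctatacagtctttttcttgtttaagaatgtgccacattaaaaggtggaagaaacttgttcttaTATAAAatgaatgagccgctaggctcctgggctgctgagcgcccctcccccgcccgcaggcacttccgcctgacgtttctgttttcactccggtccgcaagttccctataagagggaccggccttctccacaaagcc

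The Hist1h2bk stretch holds CCAAT matches on both strands, a TATAAA match on the other strand and the octamer close to the start, and the Hist1h4i stretch holds a TATAAA match and neither of the others. These are matches of letters, not measured sites.

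Normalized abundance, the unit of both tables, can be compared between the libraries of a table but not between tables. Morula libraries held an estimated 16177238 to 18568761 reads each and blastocyst libraries 13958294 to 23304921, so an abundance of 10 stood for 9.25 to 10.7 reads in morulae and 7.34 to 12.3 in blastocysts. The lowest estimated depth was that of NC blastocyst library 1. Smarca5, the targeted gene, had 501 and 470 in KD morulae against 9678 and 9760 in NC morulae, and 906 and 855 in KD blastocysts against 7000 and 8283 in NC blastocysts. The summed blood markers were 6.12 and 71.5 in KD blastocysts and 2.70 and 145 in NC blastocysts, high in library 2 of both groups.

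The first comparison asked whether histone mRNA levels differed between KD and NC morulae. No member passed the test (limma on log2 of abundance + 1, Benjamini-Hochberg adjusted p under 0.05 over all 13404 genes), where 0.00746% of all genes tested did, and no member had an unadjusted p under 0.05, which 10.4% of all genes had. The lowest adjusted p among members was 0.642, for Hist1h2ap. The summed abundance of the 17 members was 780 and 561 in KD morulae against 606 and 653 in NC morulae, a ratio of means of 1.07. The NC libraries lay between the KD libraries. Both KD libraries were above both NC libraries for 3 of 17 members (17.6%; 20.7% of all genes), Hist1h2ai, Hist2h2aa1 and Hist3h2a, and below them for 0 of 17 (21.2% of all genes). The median difference over the members was 0.29 on the log2 scale, against -0.01 over all genes, and 0.066 without KD library 1, which was the highest of the 4 for 8 of the 17. Without that library the log2 ratio of the sums was -0.17, against 0.09 with it.

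In blastocysts, KD means were higher than NC means for 29 of 37 members, but no member passed the test, where 0.0879% of all 13651 genes did. Summed abundance was 1593 and 2229 in KD blastocysts against 1158 and 1507 in NC blastocysts, a ratio of 1.43. Both KD sums lay above both NC sums, and the libraries of a group differed by nearly as much: KD library 2 had 1.40 times the sum of KD library 1, and NC library 2 had 1.30 times that of NC library 1. Unadjusted p was under 0.05 for 3 of 37 members, Hist1h2ao, Hist1h4i and Hist1h2bk, where 17.6% of all genes had one. Both KD libraries were above both NC libraries for 12 of 37 members (24.6% of all genes) and below them for 1, Hist1h2ab (24.9% of all genes). The 12 include Hist1h2ao and Hist1h2ak, which reached the mean of 10 only through the KD libraries, so the count is given as a description. The median difference was 0.43 on the log2 scale, against 0.00 over all genes, and 0.17 without NC library 1. The log2 ratio of the sums was 0.52, and 0.26 without KD library 2.

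**Figure D1:**
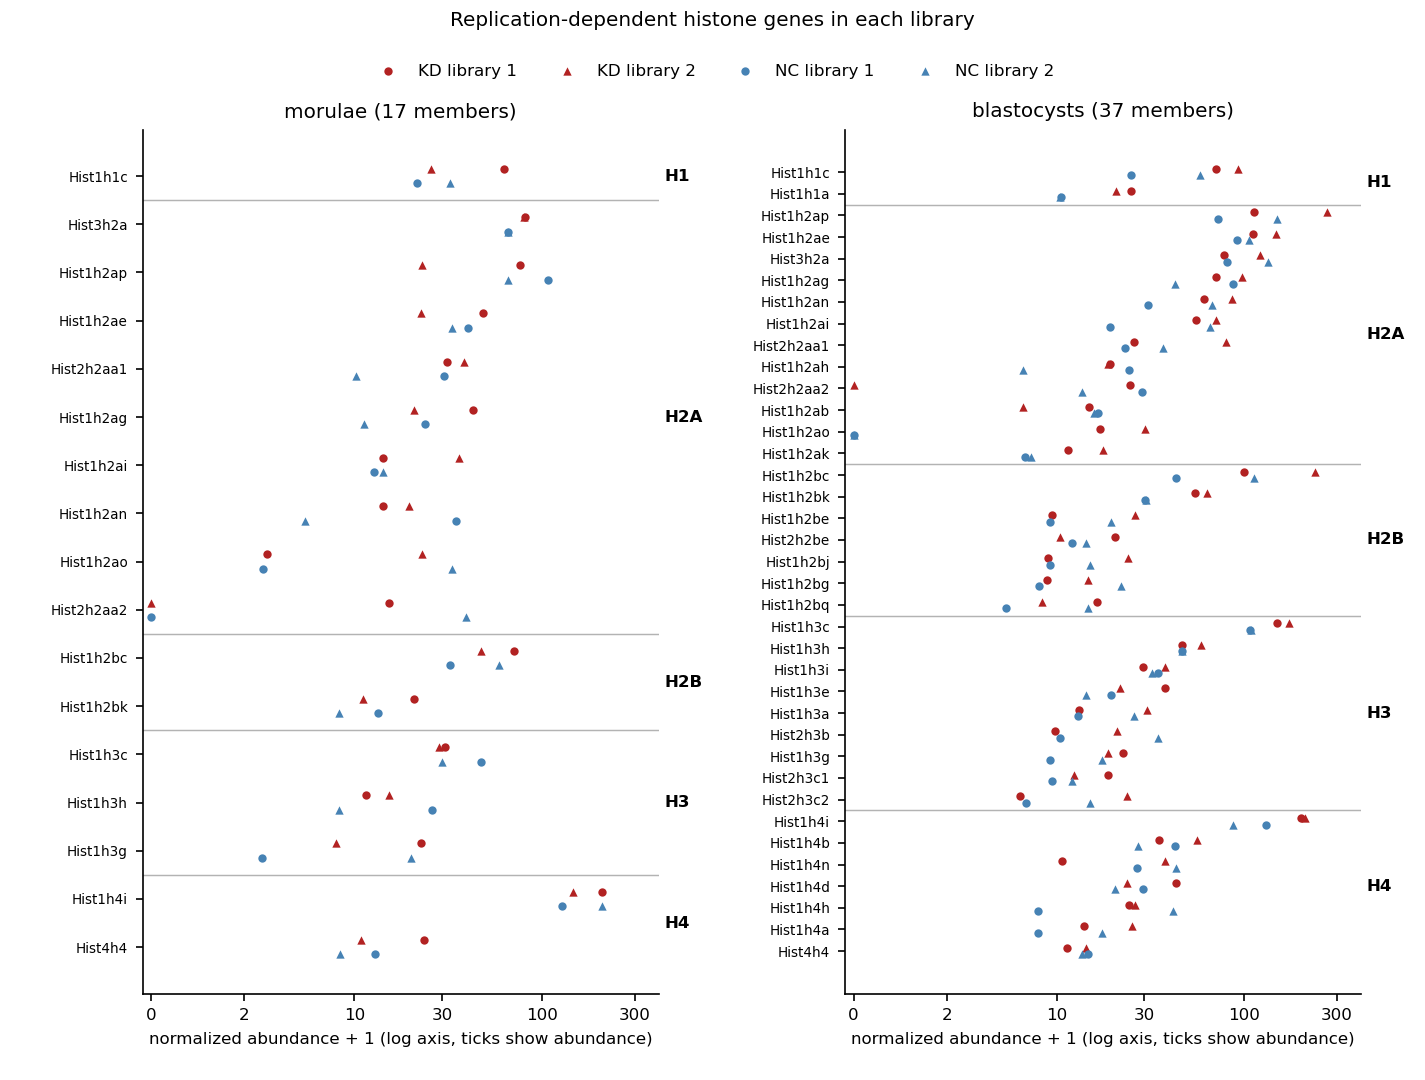
Normalized abundance of each histone member in each library (log axis of abundance + 1), by class, in morulae on the left and blastocysts on the right. Red points are KD libraries and blue points NC libraries, with circles for library 1 and triangles for library 2; in blastocysts KD library 2 is the highest of the 4 for 21 of 37 members and NC library 1 the lowest for 19.

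The libraries of a group were not alike in blastocysts. KD library 2 was above KD library 1 for 27 of 37 members, and NC library 2 was above NC library 1 for 24. Blood markers were also higher in library 2 of both groups, and the estimated depth of NC library 1 was the lowest. All 10 embryo markers were present and none passed the test. In blastocysts both KD libraries were above both NC libraries for 4 of them (24.6% of all genes), Cdx2, Gata3, Krt8 and Krt18, which mark trophectoderm, and below for 2 (24.9%), Pou5f1 and Sox2, which mark the inner cell mass. Krt8 had 43300 and 49475 in KD blastocysts against 39192 and 38809 in NC blastocysts, and Sox2 had 1266 and 1456 in KD blastocysts against 1636 and 2215 in NC blastocysts. In morulae 0 of the 10 were above (20.7%) and 3 below (21.2%), Krt8, Krt18 and Tfap2c. Of 9 cumulus and granulosa markers 4 were listed (not Fshr, Cyp19a1, Ptx3, Has2 or Tnfaip6), summing to 236 and 406 in KD blastocysts against 307 and 275 in NC blastocysts, and to 432 and 491 in KD morulae against 342 and 508 in NC morulae. Of the 3 tested, both KD libraries were above both NC libraries for 1 at each stage, Foxl2 (20.7% and 24.6% of all genes). They were below for 1 in morulae (21.2%) and 0 in blastocysts (24.9%), where 2 of the 3 had a negative log2 difference. Foxl2 had 63.9 and 42.6 in KD blastocysts against 16.3 and 25.1 in NC blastocysts, and Inha was at 4.06 or below in every library. Of 5 oviduct and uterine markers 4 were listed (not Foxj1), summing to 49.7 and 90.2 in KD blastocysts against 50.3 and 29.0 in NC blastocysts, and to 50.6 and 39.8 in KD morulae against 27.3 and 25.1 in NC morulae. Muc1 was the 1 among them that did not overlap at either stage, with 35.6 and 74.1 in KD blastocysts against 34.9 and 17.7 in NC blastocysts. Only 2 of these markers were tested at each stage. Both KD libraries were above both NC libraries for 1 of the 2 (20.7% and 24.6% of all genes) and below for 0 (21.2% and 24.9%). The 4 oocyte and germ cell markers summed to 33.7 and 26.9 in KD blastocysts against 24.2 and 39.9 in NC blastocysts, and to 115 and 123 in KD morulae against 63.4 and 93.9 in NC morulae. Of the 3 tested in morulae, both KD libraries were above both NC libraries for 3 (20.7% of all genes). Of the 2 tested in blastocysts, they were above for 0 (24.6%) and below for 0 (24.9%). The part of the blood markers, the other markers or depth in the histone values was not tested. The labels do not say whether the libraries came from separate litters, so every p-value rests on a spread that may be technical.

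Linker histone H1 binds the DNA that enters and leaves the nucleosome. Hist1h1c, the most abundant H1 member, had 71.0 and 93.1 in KD blastocysts against 25.6 and 59.1 in NC blastocysts (log2 difference 1.04 ± 0.49 (SE), limma adjusted p 0.330). Hist1h1a had 25.6 and 21.2 in KD blastocysts against 10.6 and 10.5 in NC blastocysts, a log2 difference of 1.07 ± 0.58 (limma adjusted p 0.391). In both genes each KD library was above each NC library, and the summed H1 level was 96.6 and 114 in KD blastocysts against 36.2 and 69.6 in NC blastocysts, a ratio of 1.99. In morulae Hist1h1c, the only H1 member there, had 63.6 and 26.2 in KD and 22.1 and 33.0 in NC, and the groups overlapped.

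The H2A and H2B proteins pair in the nucleosome's outer dimers. The most abundant H2A member in blastocysts, Hist1h2ap, had 112 and 266 in KD blastocysts against 73.2 and 147 in NC blastocysts (log2 difference 0.73 ± 0.50 (SE), limma adjusted p 0.491). KD library 1 lay between the NC libraries. In morulae the same gene had 76.3 and 23.5 in KD against 107 and 66.6 in NC, and the groups overlapped as well. Hist1h2ae had 111 and 146 in KD blastocysts against 91.2 and 106 in NC blastocysts, with both KD libraries higher (0.37 ± 0.29, limma adjusted p 0.557). Hist1h2ak, a member just above the mean of 10, had 11.6 and 18.1 in KD blastocysts against 6.57 and 7.18 in NC blastocysts, without overlap, but it reached the mean of 10 only through the KD libraries.

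Other H2A members ran differently. Hist1h2ab, named after its values were seen, was the only member with both KD blastocyst libraries lower, at 15.1 and 6.43 in KD against 17.0 and 16.1 in NC (log2 difference -0.68 ± 0.69, limma adjusted p 0.655). Hist3h2a, an H2A gene outside the large cluster with a long transcript end, had 81.8 and 80.5 in KD morulae against 66.6 and 66.1 in NC morulae. The libraries of each group were close there and the groups did not overlap, with a log2 difference of 0.29 ± 0.35 (limma adjusted p 0.828). In blastocysts Hist3h2a overlapped between groups, at 78.8 and 121 in KD and 81.1 and 133 in NC. It overlaps Trim17 on the same strand, and Trim17 itself was listed at 15.4 or below in every library.

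Summed H2A abundance was 606 and 942 in KD blastocysts against 486 and 644 in NC blastocysts, a ratio of 1.37, and the lower KD sum lay between the NC sums. In morulae it was 330 and 268 in KD against 320 and 281 in NC. The ratio of 0.993 there was the closest to 1 of any class at either stage.

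H2B is the partner of H2A in the nucleosome. Hist1h2bc, the most abundant H2B member, had 99.2 and 232 in KD blastocysts against 44.3 and 112 in NC blastocysts (log2 difference 1.10 ± 0.56 (SE), limma adjusted p 0.370), with KD library 1 below NC library 2. With each library left out in turn the difference ran from 0.44 to 1.76. Hist1h2bk had 55.1 and 64.3 in KD blastocysts against 30.1 and 30.5 in NC blastocysts (0.95 ± 0.40, limma adjusted p 0.284), and here each group was tight and the groups did not overlap. The sum over the H2B members was 219 and 381 in KD blastocysts against 118 and 230 in NC blastocysts, a ratio of 1.73. In morulae Hist1h2bc had 71.4 and 48.2 in KD against 33.1 and 59.8 in NC, and Hist1h2bk had 21.3 and 11.2 in KD against 13.6 and 8.20 in NC, both overlapping.

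H3 genes encode the replicative forms H3.1 and H3.2, which differ from the replacement form H3.3. Hist1h3c had 148 and 170 in KD blastocysts against 107 and 108 in NC blastocysts (log2 difference 0.56 ± 0.26 (SE), limma adjusted p 0.326), with no overlap. In morulae its KD values of 30.96 and 28.9 and its NC values of 48.0 and 29.8 overlapped, and the KD mean was the lower one. Hist1h3e had 38.7 and 22.2 in KD blastocysts against 19.9 and 14.5 in NC blastocysts, and Hist1h3g had 23.0 and 19.3 in KD blastocysts against 9.17 and 17.7 in NC blastocysts. The groups overlapped in neither gene. Both KD blastocyst libraries were above both NC libraries for 5 of the 9 H3 members (24.6% of all genes), the others being Hist1h3h and Hist2h3c1. The H3 sum was 335 and 399 in KD blastocysts against 258 and 310 in NC blastocysts, a ratio of 1.29.

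H4, the most conserved core histone, is encoded by several genes that make the same protein. Hist1h4i was the most abundant member of all at both stages, with 196 and 206 in KD blastocysts against 130 and 87.2 in NC blastocysts (log2 difference 0.91 ± 0.29 (SE), limma adjusted p 0.188). Both KD libraries were above both NC libraries. In morulae the same gene had 204 and 145 in KD against 126 and 204 in NC, with a difference of 0.10 ± 0.35 (limma adjusted p 0.952), and the highest KD and NC libraries were level. Hist1h4b had 35.8 and 56.6 in KD blastocysts against 43.3 and 27.9 in NC blastocysts, and Hist4h4, alone on chromosome 6, had 11.4 and 14.6 in KD blastocysts against 14.9 and 13.8 in NC blastocysts. The groups overlapped in both genes. The H4 sum was 337 and 392 in KD blastocysts against 261 and 254 in NC blastocysts, a ratio of 1.42 with no overlap.

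**Figure D2:**
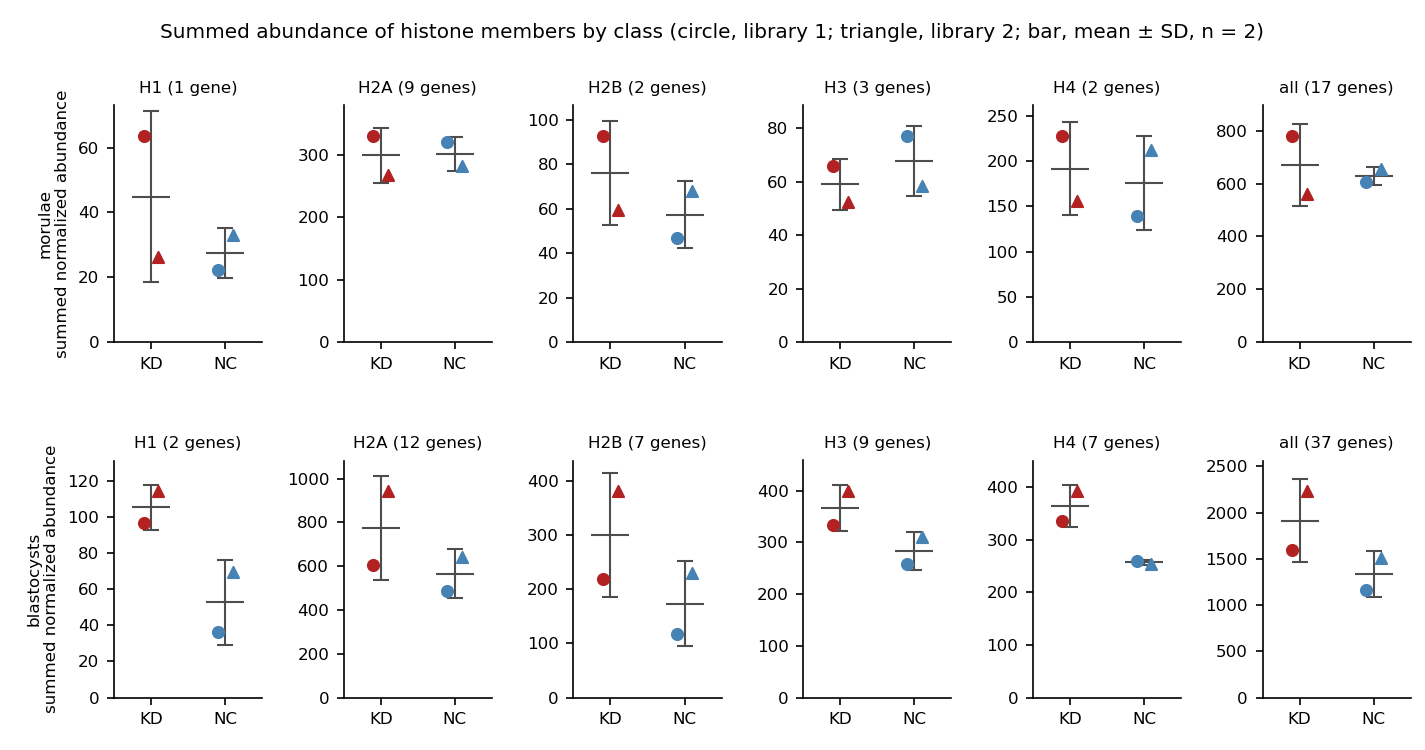
Summed normalized abundance of the members of each class, and of all members, per library in morulae (top) and blastocysts (bottom), KD left of NC, with a bar and whiskers for the mean ± SD of 2 libraries. The KD and NC points overlap in every morula panel, while in blastocysts both KD points lie above both NC points for H1, H3, H4 and the sum of all members.

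**Figure D3:**
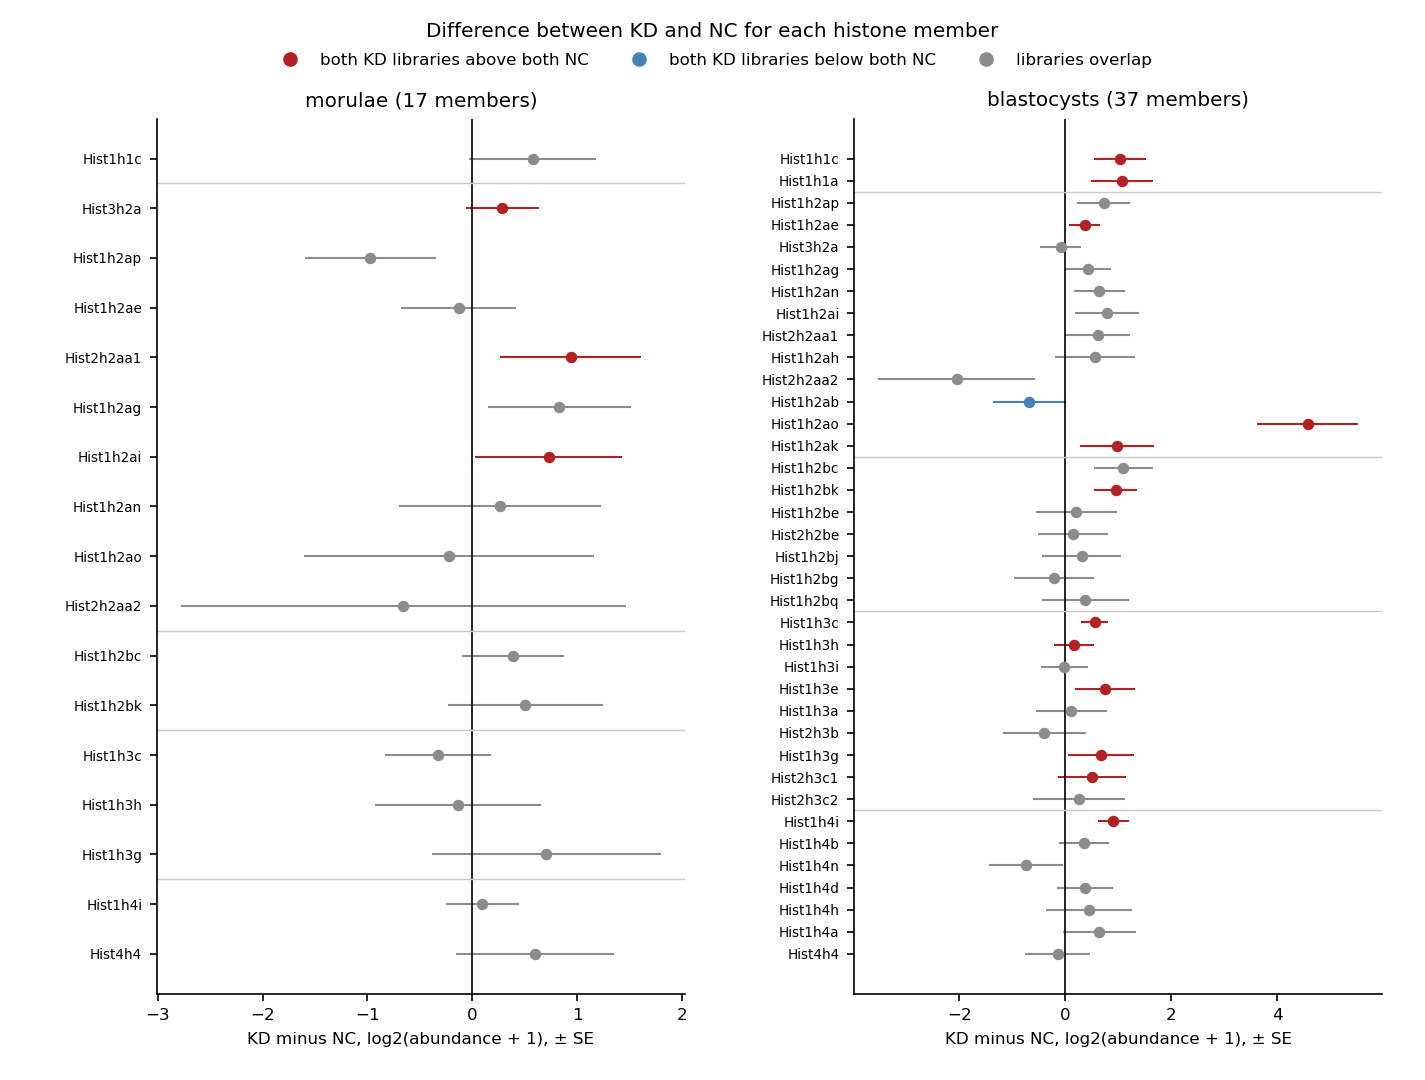
KD minus NC on the log2(abundance + 1) scale with its standard error for each member, in morulae (left) and blastocysts (right), coloured by whether the libraries of the groups overlap. In blastocysts 29 of 37 points lie right of 0, and the point farthest out, Hist1h2ao at 4.58, has both NC libraries at 0.

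Of the 17 genes that were members at both stages, 9 had a higher KD mean on the log2 scale at both, 5 were lower in KD morulae and higher in KD blastocysts, 2 the reverse and 1 lower at both. The KD effect in blastocysts minus that in morulae passed the test for none of the 17, nor for any of 12875 genes tested (0%). The median over the 17 was 0.38, against 0.01 over all genes. The unadjusted p was under 0.05 for 1 of the 17, Hist1h2ao, and for 687 of the 12875 genes, a similar share. Hist1h2ao reached the mean of 10 in blastocysts only through the KD libraries.

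Several histone genes are near copies of each other, so reads could have been divided between them in the authors' quantification. Each gene's 31-base stretches were compared, on either strand, with all annotated transcripts, including non-coding genes that overlap histone genes. At the median only 32.8% of a member's stretches were unique to it, 11 of 37 members had under 10% unique and 4 had none. Among these 4, Hist2h2aa1, Hist2h3b and Hist2h3c1 each shared all stretches with an overlapping non-coding gene (Gm20633, Gm20628 and Gm20634). Those non-coding genes were not listed at either stage. In 4 pairs over 90% of the stretches of the smaller gene were shared: Hist2h2aa1 with Hist2h2aa2 (100%), Hist1h2bq with Hist1h2br (98.3%), Hist1h2ao with Hist1h2ap (93.8%) and Hist1h4m with Hist1h4n (91.7%). In each pair the coding sequences differed at 0 bases. Among members of a class with coding sequences of equal length, identity was 85.8% to 100% in H2A, 86.4% to 99.5% in H2B, 93.7% to 100% in H3 and 85.9% to 96.8% in H4.

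Values of single copies and of their sum differed. Hist1h2ao, the member with the lowest p in blastocysts, had 17.3 and 30.3 in KD blastocysts and was listed at 0 in both NC blastocyst libraries (log2 difference 4.58 ± 0.95 (SE), limma adjusted p 0.105). Summed with Hist1h2ap it had 129 and 296 in KD blastocysts against 73.2 and 147 in NC blastocysts, and the groups overlapped. In morulae the same sum was 79.2 and 46.9 in KD against 109 and 100 in NC, both KD libraries lower.

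In the H4 pair the copies were divided by group. Hist1h4m had 12.3 and 5.48 in KD morulae and 27.0 and 12.5 in KD blastocysts, and was listed at 0 in all 4 NC libraries. Hist1h4n was listed at 0 in both KD morula libraries, against 11.1 and 12.5 in NC morulae, and had 10.7 and 38.5 in KD blastocysts against 27.5 and 44.0 in NC blastocysts. Summed, the pair had 12.3 and 5.48 in KD morulae against 11.1 and 12.5 in NC morulae, and 37.7 and 51.0 in KD blastocysts against 27.5 and 44.0 in NC blastocysts, with overlap at both stages. Likewise Hist2h2aa2 was at 0 in KD blastocyst library 2, where Hist2h2aa1 had 80.1, and their sum was 51.6 and 80.1 in KD blastocysts against 52.8 and 51.7 in NC blastocysts. In morulae Hist2h2aa1 alone was higher in both KD libraries. The sum of the pair there was 47.4 and 39.0 in KD against 30.8 and 50.3 in NC, which overlapped.

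**Figure D4:**
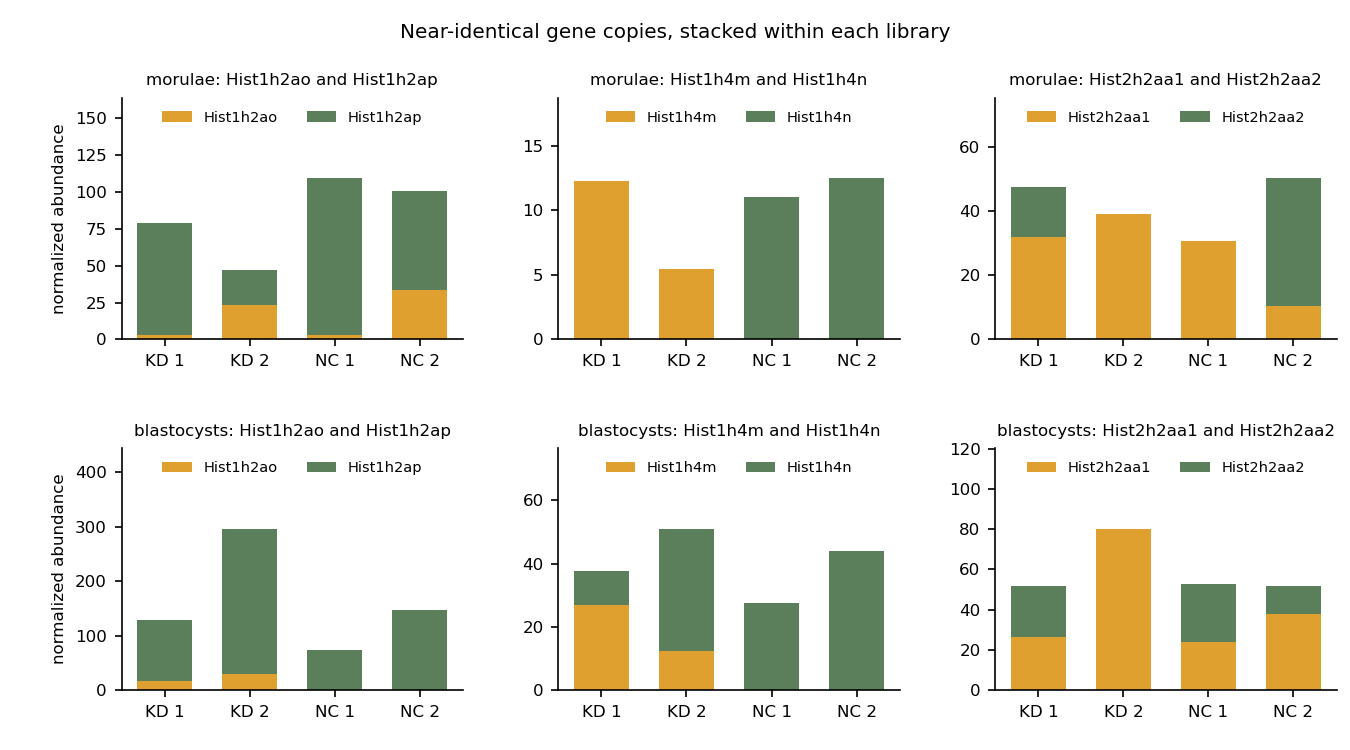
Normalized abundance of 3 pairs of near-identical copies in each library, stacked, with morulae above blastocysts and the KD libraries left of the NC libraries. Hist1h4m is absent from the 4 NC bars and Hist1h4n from the 2 KD morula bars, while the heights of the stacked bars of this pair overlap between the groups.

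Members near the mean of 10 were few-read genes. Just inside it were Hist1h2bk (mean 13.5) and Hist1h3g (13.6) in morulae and Hist1h2ak (10.9) and Hist1h2bq (11.3) in blastocysts. Just outside were Hist1h4d (9.31) and Hist1h2ah (8.57) in morulae and Hist1h4m (9.86) and Hist1h1d (8.40) in blastocysts. The standard error of a member's log2 difference had a median of 0.68 in morulae and 0.62 in blastocysts.

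Members were also grouped by how their annotated transcript ends, which bears on capture by oligo(dT). Of the 37, 13 have a transcript that runs 200 bases or more past the stop codon, 18 a shorter end and 6 a transcript that stops at the stop codon. Sums were taken over all listed histone genes of each kind of end, members or not. The 24 listed long-end genes summed to 678 and 877 in KD blastocysts against 447 and 581 in NC blastocysts, a ratio of 1.51. The 27 listed short-end genes summed to 821 and 1197 in KD blastocysts against 608 and 751 in NC blastocysts, a ratio of 1.48. Neither sum overlapped between groups, and their ratios were close. The 12 listed genes annotated up to the stop codon had 265 and 327 in KD blastocysts against 181 and 269 in NC blastocysts, which overlapped.

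Levels were also taken per kilobase of exon, with the exons of all annotated transcripts of a gene merged. On that scale the members ran in blastocysts from 3.67 for Hist1h2be to 310 for Hist1h2ap. Hist1h4i had 213 and Hist1h3c 211 there, and in morulae the members ran up to 234 for Hist1h4i. In this poly(A)-selected RNA the replacement histones were far higher on the same scale. H2afz (H2A.Z) had 7220 per kilobase in blastocysts, H3f3b (H3.3) 4016 and H3f3a (H3.3) 1555. Summed over 12 histone genes outside the clusters, abundance was 30.96 and 24.8 times that of the listed cluster genes in KD blastocysts, and 41.6 and 35.4 times in NC blastocysts. In KD morulae it was 45.6 and 63.1 times, and in NC morulae 51.7 and 55.4 times. Only in blastocysts did the 2 groups not overlap. The captured share of the cluster histone mRNA was not measured, so these values and ratios do not compare total mRNA levels.

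None of the replacement and other histone genes passed the test at either stage. H3f3b had 12938 and 13032 in KD blastocysts against 10482 and 11355 in NC blastocysts (log2 difference 0.25, limma adjusted p 0.190) and 13611 and 10945 in KD morulae against 9168 and 8744 in NC morulae. H2afx, whose product marks DNA breaks when phosphorylated, had 8216 and 9619 in KD blastocysts against 7069 and 7378 in NC blastocysts. H2afy (macroH2A1) had the opposite order, 5736 and 6486 in KD blastocysts against 7759 and 8689 in NC blastocysts (-0.43, limma adjusted p 0.124). In the 11 tested in blastocysts, both KD libraries were above both NC libraries for 7 (24.6% of all genes) and below for 2 (24.9%), H2afy and H2afy2.

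The machinery that makes and ends histone mRNA was examined as a list of 17 tested genes, none of which passed the test at either stage. In morulae 5 of the 17 had both KD libraries below both NC libraries (21.2% of all genes) and 1 had them above (20.7%). In blastocysts the counts were 8 below (24.9% of all genes) and 2 above (24.6%). Cstf2, a subunit of the cleavage stimulation factor, had 1413 and 1581 in KD blastocysts against 2290 and 2266 in NC blastocysts (log2 difference -0.61 ± 0.11 (SE), limma adjusted p 0.0917). In morulae Cstf2 had 912 and 1014 in KD against 1418 and 1334 in NC, again without overlap. Lsm11, a protein of the U7 snRNP, had 189 and 135 in KD morulae against 295 and 235 in NC morulae, and 300 and 309 in KD blastocysts against 374 and 382 in NC blastocysts.

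Eri1, an exonuclease that acts on the histone stem-loop, had 731 and 812 in KD morulae against 1396 and 1033 in NC morulae, and 836 and 895 in KD blastocysts against 1066 and 1045 in NC blastocysts. In Lsm11 and Eri1 the groups did not overlap at either stage, and no adjusted p was under 0.291. Npat, the coactivator of histone gene transcription, had 604 and 684 in KD blastocysts against 748 and 855 in NC blastocysts. Pou2f1 had 751 and 1137 in KD blastocysts against 1340 and 1324 in NC blastocysts, and overlapped in morulae. Slbp, named for its role, as was Npat, overlapped at both stages, with 1769 and 1459 in KD blastocysts and 1903 and 1617 in NC blastocysts.

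**Figure D5:**
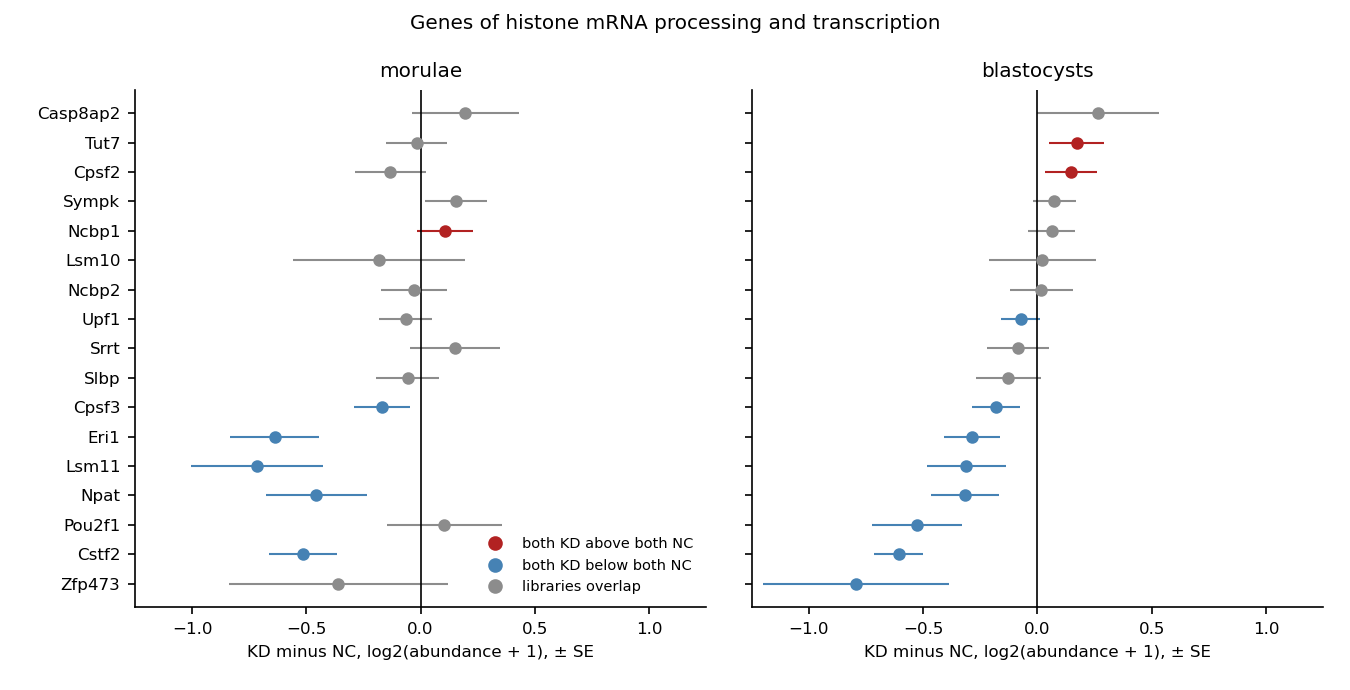
KD minus NC on the log2(abundance + 1) scale, with its standard error, for 17 genes of histone mRNA processing and transcription in morulae (left) and blastocysts (right), coloured by whether libraries overlap. Cstf2, Lsm11, Npat, Eri1 and Cpsf3 lie left of 0 with no overlap at both stages, and none passed the test.

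Among 10 genes of S phase entry and 8 histone chaperones, none passed the test at either stage. Cdk2, the kinase that phosphorylates NPAT, had 4411 and 4180 in KD blastocysts against 3275 and 3196 in NC blastocysts (log2 difference 0.41, limma adjusted p 0.112), and overlapped in morulae. Ccne2 (cyclin E2) had 167 and 230 in KD blastocysts against 78.6 and 127 in NC blastocysts, without overlap. Both KD blastocyst libraries were above both NC libraries for 3 of the 10 (24.6% of all genes), E2f1 being the other, and below for 3 (24.9%), Ccna2, Pcna and Mcm2. Ccna2 (cyclin A2) had 2885 and 3230 in KD blastocysts against 3314 and 3293 in NC blastocysts. Pcna, the sliding clamp of replication, had 3220 and 2958 in KD blastocysts against 3350.4 and 3334 in NC blastocysts. Mcm2, a subunit of the replicative helicase, had 5056 and 5106 in KD blastocysts against 5481 and 5603 in NC blastocysts. Ccne1 (cyclin E1) overlapped, with 1839 and 1396 in KD blastocysts and 1427 and 894 in NC blastocysts. Chaf1b, a subunit of the chaperone that loads histones at replication forks, had 826 and 717 in KD blastocysts against 933 and 950 in NC blastocysts. Of the 8 chaperones, both KD libraries were below both NC libraries for 4 in blastocysts (24.9% of all genes) and for none in morulae (21.2%).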

How the data were processed

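Poly(A) RNA of 20 pooled embryos per library was sequenced with paired-end reads of 150 bases after 12 to 15 PCR cycles, per the labels' protocols. Each of the 2 tables the authors deposited holds a normalized signal for every gene of 1 stage, here called normalized abundance. The tools named per the submitters' processing notes are Salmon 0.14.1 and DESeq2, with the mm10 build, and which of them gave the final values is not stated there. Salmon-type quantification can divide reads between near-identical genes. Whole reads were not recovered for nearly all genes, so no count test was run; depth was estimated from the step between low values (tolerance 0.02).

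Groups came from the sample titles. Genes with a mean of at least 10 were fitted in limma 3.58.1 under R 4.3.3 on log2(value + 1) (mean-variance trend, Benjamini-Hochberg adjustment over all genes, threshold 0.05), KD minus NC within each table, and the stage difference in 1 fit of 8 libraries. On this scale the changes of low genes can be understated. Where a library is at 0 they can also exceed the ratio of means, as for Hist2h2aa2 in blastocysts (log2 difference -2.05, ratio 0.584). No permutation test of 2 libraries against 2 can reach 0.05. The fit was tested on simulated data. Sequences, 31-base stretches and ends came from GENCODE vM21 transcripts and RefSeq windows. Alternatives were another pseudocount and filters, no trend, the replicate block, each library left out and, chosen after seeing the data, copies summed. The members and lists were chosen with earlier results of these data known. Named members are the 2 most abundant and the 3 with the smallest p per class and table and those next to the mean of 10; from each list, up to 3 with the smallest p per table. Hist1h2ai, Hist1h2ab, Hist2h3c1, Hist1h2be, Hist2h2aa2, Trim17, E2f1, Ccna2, Pcna, Mcm2, the cell type markers and genes named for a role or a copy fall outside it and were named after their values were seen.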

Additional observations from a re-analysis of the deposited data

How the results depend on the processing

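The number of genes of any kind called was 1 in morulae, 12 in blastocysts and 0 for the stage difference. Without the mean-variance trend 0 were called in either stage, and with no filter on low values 27 in blastocysts. With a library left out, the count was 1 to 3 in blastocysts and 0 to 2 for the stage difference; the cause was not tested. Histone members called stayed at 0 in all of these. Same-numbered libraries of KD and NC deviated together (r = 0.30 in morulae, 0.15 in blastocysts), but the labels do not say that the numbers mark a shared litter or day and there are only 2 pairs. With the replicate block, 892 of 13404 genes were called in morulae, 1208 of 13651 in blastocysts and 1 of 12875 for the stage difference. In blastocysts 2 of 37 histone members were called, Hist1h2ao (limma adjusted p 0.0425) and Hist1h2bc (0.0491), a smaller share than of all genes. Hist1h2ao reached the mean of 10 only through the KD libraries, and its sum with the near-identical Hist1h2ap overlapped between groups. With each library left out in turn, the members' median log2 difference ran from 0.066 to 0.40 in morulae and from 0.17 to 0.65 in blastocysts, and the log2 ratio of summed abundance from -0.17 to 0.31 in morulae and from 0.26 to 0.74 in blastocysts. With near-identical copies summed, chosen after seeing the data, the medians were 0.28 in morulae and 0.38 in blastocysts. Of 29 named member values, 154 of 156 values under other settings kept direction and side, and 12 of 116 with a library left out changed sign, with ranges in morulae of -0.045 to 1.20 for Hist1h1c, -0.026 to 0.81 for Hist1h2bc, -0.67 to 0.0073 for Hist1h3c, -0.56 to 1.98 for Hist1h3g, -0.92 to 0.65 for Hist1h3h and -0.25 to 0.44 for Hist1h4i, and in blastocysts of -0.31 to 1.08 for Hist1h2bq and -1.61 to 0.14 for Hist1h4n. In blastocysts the differences that kept their sign also moved with the library left out, from 0.45 to 1.63 for Hist1h1c, 0.11 to 1.35 for Hist1h2ap, 0.18 to 0.56 for Hist1h2ae, 0.68 to 1.28 for Hist1h2ak, 0.44 to 1.76 for Hist1h2bc, 0.36 to 1.14 for Hist1h3e, 0.24 to 1.12 for Hist1h3g, 0.0042 to 0.34 for Hist1h3h, 0.11 to 1.18 for Hist1h4a, 0.038 to 0.69 for Hist1h4b and 0.63 to 1.19 for Hist1h4i. Those of Hist1h1a, Hist1h2ao, Hist1h2bk and Hist1h3c stayed within 0.95 to 1.20, 4.20 to 4.97, 0.84 to 1.06 and 0.46 to 0.65. Where a group was left with 1 library, that library was assumed to vary like the others. Few reads stood behind most members, which limits every single-gene value.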
